A study of Homo sapiens with 2 samples.

Results

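The secreted matrix proteins CYR61 and CTGF, the best known targets of the Hippo effectors YAP and TAZ, were the most abundant transcripts per exonic length among 10 Hippo pathway genes in SUM159 cells resistant to doxorubicin. CYR61 had 86.0 ± 15.4 and CTGF had 82.7 ± 1.85 counts per 1000000 counts of the library and per kilobase of exon (CPM per kb; SD, n = 2 each). Of the coactivators, YAP1 had 45.3 ± 9.15 CPM per kb and WWTR1, the gene of TAZ, had 5.15 ± 0.666 CPM per kb (SD, n = 2 each). By CPM, without length scaling, YAP1 was above CTGF in both libraries. It was then above CYR61 in replicate 2 and below CYR61 in replicate 1. The order of the genes also depends on the length assigned to each. All 4 TEAD transcription factors were detected, with means from 13.4 to 20.7 CPM per kb, and the inhibitory kinases LATS1 and LATS2 were the lowest, with 2.46 ± 1.70 and 4.09 ± 1.39 CPM per kb (SD, n = 2 each).

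The genes were chosen by name, as the effectors YAP1, WWTR1 and TEAD1 to TEAD4, the kinases LATS1 and LATS2, and the targets CTGF and CYR61, and each of the 10 was found among the 23368 gene symbols of both count files. CTGF and CYR61 are older symbols of CCN2 and CCN1. The symbol TAZ in the files stands for tafazzin in annotations of that age and was not used. SUM159 is a triple-negative breast cancer line. The cells, with a genotype given as wild type, grew attached as a monolayer. Their resistance to doxorubicin, an anthracycline that damages DNA, had been built up by treatment over a long term with rising doses, with recovery in medium without drug after exposure. There are 2 polyadenylated RNA libraries, replicates 1 and 2 of this 1 condition. Treatment-naïve cells were not analysed here, so the values are levels, and no change with resistance was tested.

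Hippo signalling restrains growth through a chain of kinases. The kinases MST1 and MST2, with their partners, activate LATS1 and LATS2, which phosphorylate YAP and TAZ so that they are held in the cytoplasm or degraded. Unphosphorylated YAP and TAZ enter the nucleus, where they bind DNA through TEAD factors and switch on genes such as CTGF and CYR61. Stiff substrates, cell spreading and low cell density favour this state, and in breast cancer cells YAP and TAZ are known for links with invasion and drug tolerance. Much of this control acts on the proteins, which RNA levels do not show.

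The libraries held 23044084 counts in replicate 1 and 17985508 in replicate 2, so that 1 count is 0.0434 and 0.0556 CPM. A count of 0 allows up to 0.130 and 0.167 CPM, taking 3 counts as the limit, and such limits cover counting error only. VIM, a mesenchymal marker, had 7542 ± 873 CPM and KRT18, an epithelial keratin, had 346 ± 89.6 CPM (SD, n = 2 each). ERBB2 had 99.7 ± 6.56 CPM (SD, n = 2), EPCAM had 6 counts in each library, and the hormone receptor genes ESR1 and PGR had at most 11 counts in a library. Of the leukocyte and endothelial markers, CD3E had no count, CDH5 had 1 and 0, PECAM1 had 24 and 20, and PTPRC had 48 and 31 counts in replicates 1 and 2. The libraries differed beyond counting error at 57.7% of the genes tested, 27.6% higher in replicate 1 and 30.1% higher in replicate 2, by the exact binomial test of edgeR at an adjusted p below 0.05. Replicate 1 held more of short and replicate 2 more of long genes, since the log2 ratio (replicate 1 over replicate 2) had a rank correlation of −0.51 with exonic length, across 13000 genes that are not independent replicates. The cause of this trend was not tested. The sources do not say whether replicates 1 and 2 were grown apart. The p-values set the difference between these libraries against counting error only, and part of that difference may be technical.

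YAP1 encodes the coactivator YAP and was among the more abundant genes in the resistant cells. It lies on chromosome 11 of GRCh37 from 101981178 to 102104155, on the plus strand. Replicates 1 and 2 had 5648 and 5877 counts of YAP1, or 245 and 327 CPM. The level was higher in replicate 2, with a log2 ratio of −0.41 (adjusted p = 9.35e-53, exact binomial test of edgeR in its chi-square form for large counts). Per exonic length, 92.1% of expressed genes, those whose counts averaged 20 or more, lay below YAP1. As these are bulk libraries, fewer cells with a transcript and less of it in each cell cannot be told apart.

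WWTR1 encodes TAZ, the paralog of YAP, and lies on chromosome 3 from 149235022 to 149454501, on the minus strand. It had 900 and 844 counts in replicates 1 and 2, or 39.1 and 46.9 CPM. The libraries lie close to each other, and the log2 ratio of −0.26 passed the exact test (adjusted p = 0.000345 in edgeR). With the length trend removed, this call was lost at a log2 ratio of −0.06 (adjusted p = 0.539 in the exact binomial test). The level of YAP1 per kilobase was 8.31 times that of WWTR1 in replicate 1 and 9.22 times in replicate 2. YAP1 was the higher of the paralogs in both libraries on each length scale tried, while the size of the ratio depended on the lengths assigned to both genes. At median transcript lengths it was 2.63.

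**Figure D1:**
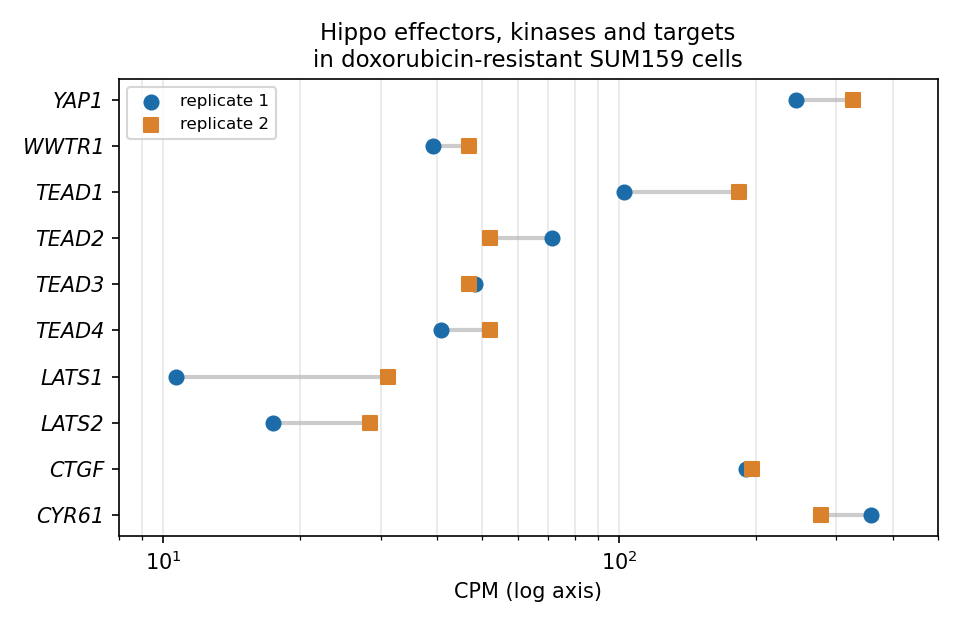
CPM on a log axis for the 10 genes, ordered as effectors, kinases and targets, in replicate 1 (circles) and replicate 2 (squares) of the doxorubicin-resistant cells, with a grey line joining the libraries. The libraries nearly coincide for CTGF and for TEAD3, whereas LATS1 lies at 10.7 and 31.1 CPM in replicates 1 and 2.

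The TEAD factors, which carry YAP and TAZ to DNA, were all present, and per kilobase no single paralog made up most of the family. TEAD1 (chromosome 11, 12695968 to 12966284, plus strand) had 2369 and 3302 counts in replicates 1 and 2, or 103 and 184 CPM. This was the highest CPM of the family in both libraries, but TEAD1 also has the longest joined exons of the family, 10700 bp, and per kilobase it had 9.61 and 17.2 CPM. TEAD2 (chromosome 19, 49843852 to 49865714, minus strand) had 1642 and 940 counts, or 71.3 and 52.3 CPM in replicates 1 and 2. TEAD3 (chromosome 6, 35441374 to 35464856, minus strand) had 1112 and 842 counts, or 48.3 and 46.8 CPM. Its libraries had the smallest difference of the family and did not pass the exact test (log2 ratio 0.04, adjusted p = 0.618 in edgeR). With the length trend removed the ratio of TEAD3 changed sign to −0.15 and passed (adjusted p = 0.0464 in the exact binomial test). TEAD4 (chromosome 12, 3068496 to 3149842, plus strand) had 940 and 936 counts, or 40.8 and 52.0 CPM.

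On the per-kilobase scale the family was shared out more evenly than by CPM. TEAD2 took 35.5% of the summed TEAD level in replicate 1 and 24.0% in replicate 2. TEAD4 took 26.7% and 31.4%, TEAD3 took 23.5% and 21.1%, and TEAD1 took 14.3% and 23.5% in replicates 1 and 2. The paralog with the largest share was therefore TEAD2 in replicate 1 and TEAD4 in replicate 2, and their ranges overlap. Between the libraries, TEAD1 was lower in replicate 1 by the exact test (log2 ratio −0.84, adjusted p = 4.86e-103 in edgeR), TEAD4 was also lower (log2 ratio −0.35), and TEAD2 was higher (log2 ratio 0.45, adjusted p = 1.12e-13 in the exact test). TEAD1 and TEAD2 differ in the direction that their lengths of 10700 and 2980 bp follow across all genes, while TEAD4, with 2275 bp, goes against it. Without length scaling, TEAD1 had 47.0% of the family on average, so the order of the paralogs rests on the scale.

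**Figure D2:**
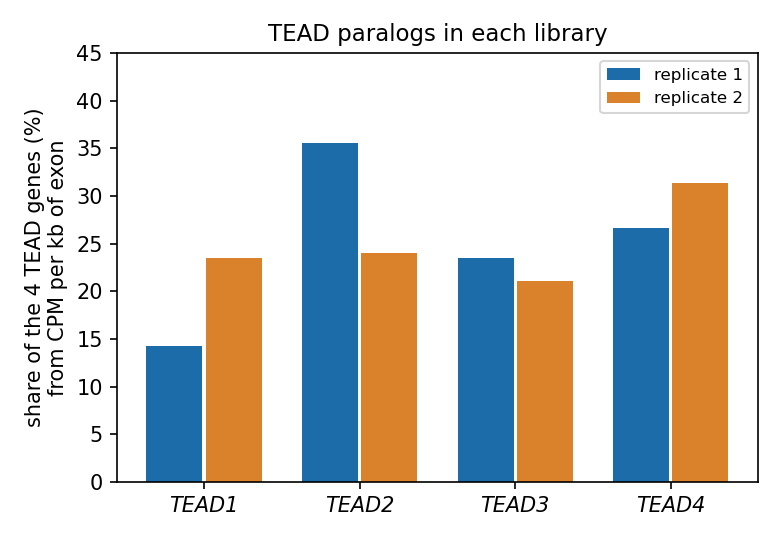
Share, in percent, of each TEAD gene in the summed CPM per kilobase of exon of the 4 paralogs, with a bar for each library and no error bar. TEAD2 leads with 35.5% in replicate 1 and TEAD4 with 31.4% in replicate 2, and TEAD1 is the lowest in replicate 1 with 14.3%.

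The LATS kinases, which inhibit YAP and TAZ, had the lowest levels of the 10 genes. LATS1 (chromosome 6, 149979289 to 150039241, minus strand) had 246 and 560 counts in replicates 1 and 2. These correspond to 10.7 CPM in replicate 1, with an exact Poisson 95% interval from 9.38 to 12.1, and to 31.1 CPM in replicate 2, with an interval from 28.6 to 33.8. The intervals cover counting error only and do not overlap. LATS1 had the largest difference between the libraries of the 10 genes, with a log2 ratio of −1.54 (adjusted p = 1.64e-47, exact binomial test of edgeR), and a ratio of −1.33 was left after the length trend had been removed. The level of LATS1 thus rests on which library is taken. LATS2 (chromosome 13, 21547175 to 21635725, minus strand) had 401 and 512 counts, or 17.4 and 28.5 CPM in replicates 1 and 2. It was likewise lower in replicate 1 (log2 ratio −0.71, adjusted p = 6.91e-13 in the exact test). Per kilobase, LATS1 stood at 0.405 of LATS2 in replicate 1 and at 0.723 in replicate 2, and their ranges over the libraries overlap.

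CTGF and CYR61, matrix proteins of the CCN family that bind integrins, stood at the other end of the range per kilobase of exon. CTGF (chromosome 6, 132269316 to 132272512, minus strand) had 4383 and 3531 counts, or 190 and 196 CPM in replicates 1 and 2. The libraries did not pass the exact test (log2 ratio −0.05, adjusted p = 0.235 in edgeR), but they did once the length trend had been removed, with CTGF lower in replicate 1 at a log2 ratio of −0.33 (adjusted p = 2.44e-22 in the exact binomial test). CYR61 (chromosome 1, 86046444 to 86050272, plus strand) had 8255 and 4996 counts, or 358 and 278 CPM. It was higher in replicate 1 (log2 ratio 0.37, adjusted p = 1.11e-44 in the exact binomial test of edgeR, in its chi-square form). Per kilobase, 96.4% of expressed genes lay below CYR61 and 96.2% below CTGF. The ranges of the pair overlap, so their order is not settled by these libraries.

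TEAD factors bind the sequence CATTCC, read as GGAATG on the other strand, and the promoter of CTGF is a textbook example. The RefSeq window of CTGF, 250 bases before to 50 after the gene start, holds 3 matches, all before the start. Of 35116 such windows in the RefSeq table, 14.0% hold at least 1 match on either strand and 0.128% hold 3 or more. The bases before the start are shown for CTGF and YAP1, the members with a match there, 5′ to 3′ on the strand of the gene, with the matches in capitals.
CTGF: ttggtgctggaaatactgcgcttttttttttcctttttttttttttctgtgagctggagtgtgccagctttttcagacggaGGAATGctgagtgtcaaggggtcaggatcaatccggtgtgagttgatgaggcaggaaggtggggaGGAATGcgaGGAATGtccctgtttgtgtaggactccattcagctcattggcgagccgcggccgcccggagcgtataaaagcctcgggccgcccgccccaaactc
YAP1: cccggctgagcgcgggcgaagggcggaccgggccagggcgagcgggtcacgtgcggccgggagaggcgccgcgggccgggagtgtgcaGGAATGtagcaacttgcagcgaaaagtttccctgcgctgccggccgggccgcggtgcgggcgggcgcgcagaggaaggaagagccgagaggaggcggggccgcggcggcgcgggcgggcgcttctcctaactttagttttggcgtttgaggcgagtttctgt

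The CTGF stretch lies at chr6:132272513-132272762 of GRCh37 on the minus strand, found by an exact match of the RefSeq sequence (build GRCh38.p14), and its matches begin at −169, −104 and −95 from the start. The last of them is part of the longer ACATTCC, which 3.46% of windows hold, and the last pair are only 3 bases apart. The YAP1 stretch lies at chr11:101980928-101981177 of GRCh37 on the plus strand, with a match to ACATTCC at −162. LATS2, which is also a target of YAP and TAZ, has a match after the start, at 10. Its 30 bases around the site, at chr13:21635699-21635728 of GRCh37 on the minus strand, are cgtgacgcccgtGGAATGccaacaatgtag. Windows were found for 7 of the 10 genes, all except TEAD1, TEAD4 and CYR61, and those of WWTR1, TEAD2, TEAD3 and LATS1 hold no match. The AP-1 motif TGANTCA, which 7.71% of windows hold, was found only for LATS1, at −245 in 1 of its windows. A match describes the letters only, and binding was not measured.

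Per exonic length the order of the members was CYR61, CTGF, YAP1, TEAD2, TEAD4, TEAD3, TEAD1, WWTR1, LATS2 and LATS1. Ranges over the 2 libraries overlap for the neighbours CYR61 and CTGF, TEAD2 and TEAD4, TEAD3 and TEAD1, WWTR1 and LATS2, and LATS2 and LATS1. They do not overlap between CTGF and YAP1, YAP1 and TEAD2, TEAD4 and TEAD3, or TEAD1 and WWTR1. Without length scaling YAP1 averaged 286 CPM, above CTGF with 193 CPM. The place of YAP1 in this order thus rests on the scale. So does that of WWTR1, with a median transcript of 650.5 bp against joined exons of 8353 bp. Divided by median transcript lengths, the means put WWTR1 above TEAD1, TEAD2 and TEAD3, and YAP1 above CTGF and CYR61. All 10 reached a mean count of 20, as did 52.8% of all symbols. The median over the 10 was 54.6 CPM, against 1.89 CPM over all symbols, of which 6576 had no count. Per exonic length, 43.9% of expressed genes lay below WWTR1, 38.1% below LATS2 and 26.8% below LATS1. For the TEAD genes it was from 70.9% (TEAD1) to 81.0% (TEAD2). Between the libraries 8 of the 10 differed, against 57.7% of all genes tested, 2 of them higher in replicate 1 and 6 in replicate 2, against 27.6% and 30.1%. The genes tested reach down to a summed count of 10, whereas each member averaged 403 counts or more. These shares are therefore not for genes of like count. With the length trend removed 9 differed, against 52.2% of the genes with a length. Exons of an antisense gene cover part of the exons of YAP1, WWTR1, TEAD2, LATS1 and CTGF, at most 11.9% of the length in CTGF, and without a stated strand setting reads there cannot be assigned. Those antisense genes that the files list, WWTR1-AS1 with 7 and 1 counts and CD37, opposite TEAD2, with none, were at or near 0.

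**Figure D3:**
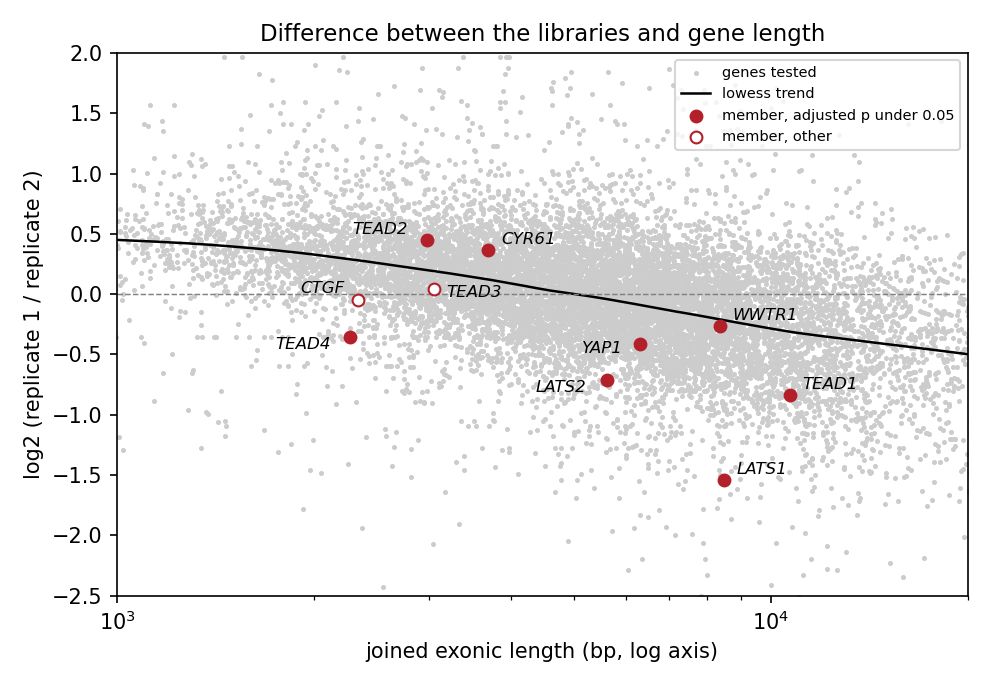
Log2 ratio of the libraries (replicate 1 over replicate 2) against joined exonic length in bp on a log axis, for genes tested (grey, without those beyond the axes), with a lowess trend (line). Filled red points are the 8 members past an adjusted p of 0.05 and open ones CTGF and TEAD3, and LATS1 lies farthest from the trend of the 10.

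The kinase module above LATS was largely detected. Of its 19 genes, 18 reached a mean count of 20, and the median was 60.0 CPM. Here and in the next lists, genes are ordered by CPM, which makes no allowance for length. FRMD6, a scaffold at the membrane, was first with 267 ± 118 CPM (SD, n = 2), followed by the kinase MAP4K4, which acts beside the MST kinases, with 192 ± 32.6 CPM, and the scaffold WWC1 (KIBRA) with 143 ± 26.4 CPM. NF2, the gene of the tumor suppressor merlin, had 105 and 97.4 CPM in replicates 1 and 2. The MST kinases themselves had 50.9 and 69.1 CPM for STK4 (MST1) and 20.4 and 26.0 CPM for STK3 (MST2). Their partner SAV1 had 67.3 ± 3.98 CPM (SD, n = 2), and its counterparts in activating LATS, MOB1A and MOB1B, had 57.5 and 85.7 CPM and 21.4 and 26.8 CPM in replicates 1 and 2. TNIK, at 11.8 ± 7.51 CPM, had the largest difference between the libraries, with a log2 ratio of −1.39, and MAP4K1, a kinase of blood cells, had 5 and 2 counts. Of the 18 tested genes, 15 were higher in replicate 2 and 2 in replicate 1, against 30.1% and 27.6% of all genes tested. Their median exonic length was 8816 bp, against 5353 bp over all genes tested. With the length trend removed, STK3, STK4, MOB1B and MAP4K4 of the genes named here no longer passed the exact test. FRMD6, WWC1, MOB1A and TNIK stayed higher in replicate 2, and NF2 and SAV1 were higher in replicate 1.

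The phosphatase complex STRIPAK opposes the MST kinases, and 10 of its 11 listed genes reached a mean count of 20, with a median of 46.9 CPM. The phosphatase subunits PPP2CA, with 267 ± 6.64 CPM, and PPP2R1A, with 265 ± 48.8 CPM (SD, n = 2 each), came first. The scaffold STRN4 had 162 CPM in both libraries. STRN, another scaffold, had the largest difference between the libraries, with a log2 ratio of −0.75. With the length trend removed STRN was at −0.35, and PPP2R1A had the largest difference, at 0.68. MOB4 had 0 and 1 counts in replicates 1 and 2. The readthrough gene HSPE1-MOB4, which shares its exons, had none, and how reads in both genes were counted was not tested.

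**Figure D4:**
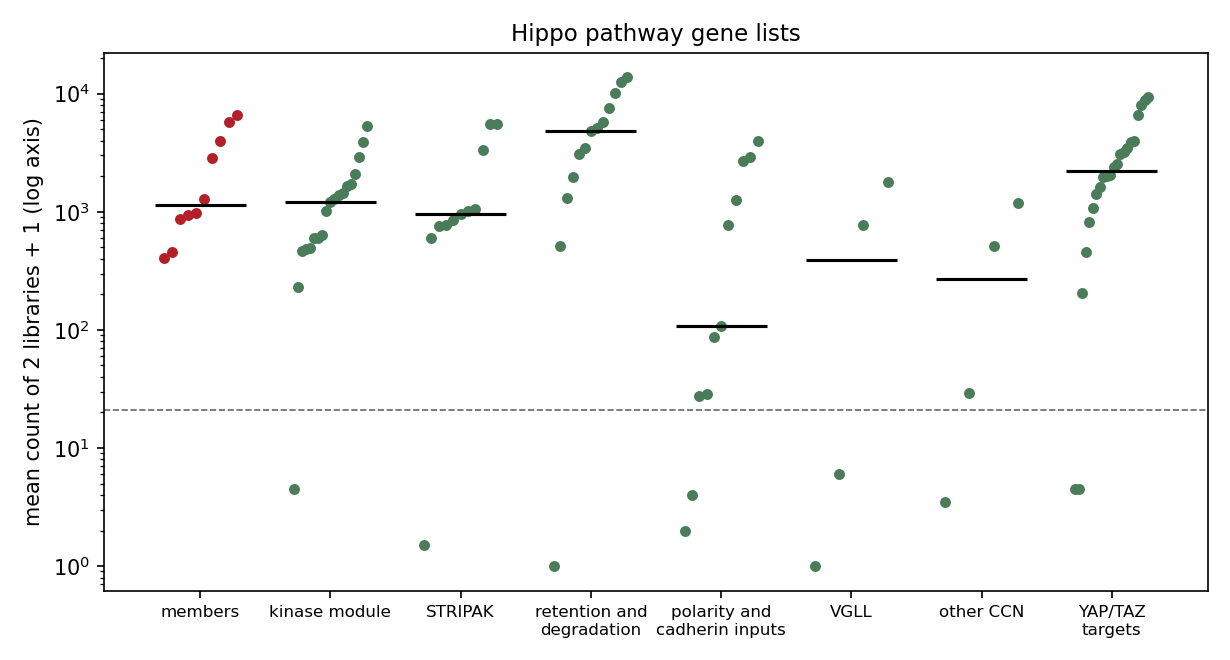
Average count of replicates 1 and 2, with 1 added and drawn on a log axis, for the members (red) and 7 lists of related genes (green), with a point for each gene and a bar at the median. Above the dashed line, at an average of 20 counts, lie all 10 members, 18 of 19 genes of the kinase module and 20 of 22 YAP and TAZ targets.

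Among proteins that hold YAP and TAZ in the cytoplasm or mark them for degradation, 12 of 13 genes reached a mean count of 20, and the median was 234 CPM. The 14-3-3 genes YWHAQ, YWHAZ and YWHAB led with 666 ± 39.4, 614 ± 32.8 and 486 ± 69.8 CPM (SD, n = 2 each). Of the angiomotins, which bind YAP, AMOTL2 had 173 ± 34.9 CPM (SD, n = 2), whereas AMOT had no count in either library. The phosphatase PTPN14 had 109 and 206 CPM in replicates 1 and 2, the largest difference of this group with a log2 ratio of −0.91. With the length trend removed the ratio of PTPN14 was −0.44, and others of the group differed more. BTRC, which recognises phosphorylated YAP for degradation, was the last of those with counts, at 25.6 ± 5.81 CPM. At the level of polarity proteins and atypical cadherins, 9 of 11 genes passed the minimum count, but the median was 5.09 CPM. The cadherin FAT1 had 116 and 297 CPM in replicates 1 and 2, SCRIB had 141 ± 7.10 and DLG1 had 137 ± 54.9 CPM (SD, n = 2 each), while FAT4, a relative of FAT1, had 45 and 126 counts. FAT4 had the largest difference between the libraries here, with a log2 ratio of −1.83. The polarity gene CRB3 had 2 and 0 counts, and the cadherin DCHS2 had 2 and 4.

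VGLL proteins compete with YAP and TAZ for TEAD factors, and the levels of the 4 genes were far apart. VGLL3 had 63.3 and 117 CPM in replicates 1 and 2, and VGLL4, which represses TEAD targets, had 38.2 and 36.8 CPM. VGLL2 had 6 and 4 counts and VGLL1 had none. The rest of the CCN family spanned a like range. WISP1 had 50.7 and 66.4 CPM and NOV had 26.4 and 23.4 CPM in replicates 1 and 2. WISP2 had 38 and 18 counts and WISP3 had 3 and 2.

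Of 22 listed YAP and TAZ targets, among them CTGF, CYR61 and LATS2, 20 reached a mean count of 20, and the median was 111 CPM. Without those members 17 of 19 did, with a median of 102 CPM. The receptor kinase AXL came first, with 455 and 457 CPM in replicates 1 and 2, followed by the membrane protein CRIM1 with 355 and 537 CPM and the membrane repair protein MYOF with 274 and 534 CPM. Per kilobase AXL averaged 88.9, CRIM1 61.3 and MYOF 47.6 CPM per kb, beside 82.7 CPM per kb for CTGF. ANKRD1, an ankyrin repeat protein and a widely used YAP target, had 4 and 3 counts, and IGFBP3 had 5 and 2. DOCK5, at 29.0 and 83.0 CPM, had the largest difference between the libraries, with a log2 ratio of −1.52. Of the 20 tested targets 11 were higher in replicate 2 and 4 in replicate 1, against the same shares of 30.1% and 27.6% over all genes tested. The level of these targets in naïve cells was not analysed here, and whether YAP or TAZ drive them in these cells was not tested.

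The TEAD sequence was also looked for in the promoters of these targets. Of the 16 targets with a window, 9 held CATTCC on either strand, which is a description of a list collected for regulation by TEAD factors. Over all 27305 genes with a window it was 16.7%. The sites outside the members are shown for AMOTL2, ANKRD1, AXL and TGFB2, to set motif matches beside levels, as 30 bases on the strand of the gene with the match in capitals.
AMOTL2: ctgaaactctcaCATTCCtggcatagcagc
ANKRD1: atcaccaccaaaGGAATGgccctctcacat
ANKRD1: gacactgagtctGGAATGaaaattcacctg
AXL: cagactttgcacCATTCCactccctccgct
TGFB2: tgtcagggcgcaCATTCCacctccttcctc

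The matches begin at −69 in AMOTL2 (chr3:134374499-134374528 of GRCh38.p14, minus strand), at −220 and −128 in ANKRD1 (chr10:90921290-90921319 and chr10:90921198-90921227, minus strand), at −212 in AXL (chr19:41226531-41226560, plus strand) and at −185 in TGFB2 (chr1:218345139-218345168, plus strand). AMOTL2 and AXL each have another window with no match. ANKRD1, with a pair of matches, had 4 and 3 counts in replicates 1 and 2, whereas AXL, with 1 match, had 455 and 457 CPM, and CTGF, with 3, had 190 and 196 CPM. PTPN14, FOXF2 and NUAK2 also held matches, NUAK2 with 10.4 and 9.23 CPM in replicates 1 and 2.

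**Figure D5:**
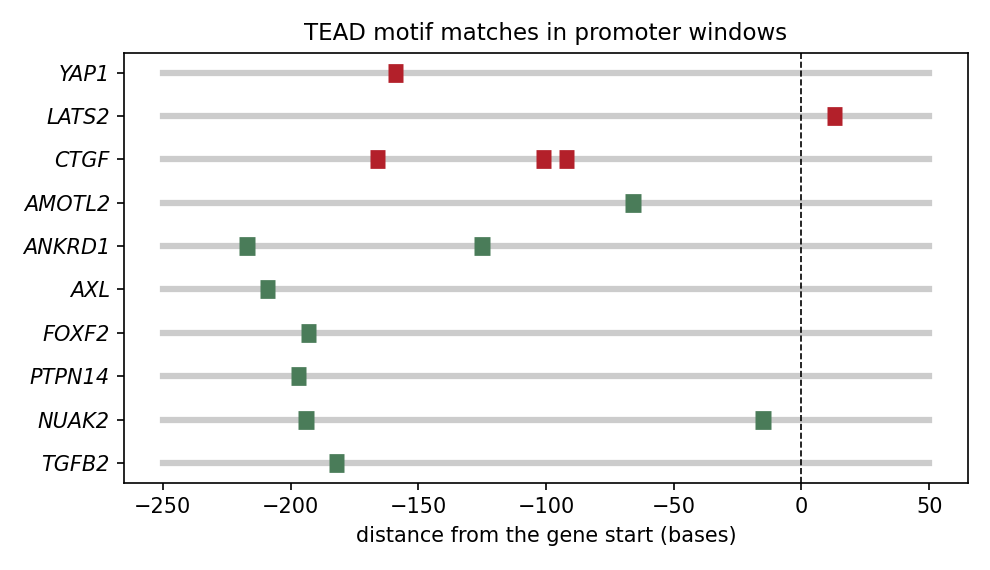
Position of CATTCC matches on either strand in the promoter windows of genes with at least 1 match, in bases from the gene start (dashed line), with all windows of a gene drawn on 1 line. Red marks are members and green marks other listed targets, and CTGF is the only gene shown with 3 matches.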

How the data were processed

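Polyadenylated RNA of doxorubicin-resistant SUM159 monolayer cells was examined in 2 libraries, prepared with a directional kit and sequenced in single-end mode. Whole-number counts for each gene symbol were deposited by the authors, with no normalization. According to the paper and the processing notes, reads were checked with FastQC, mapped to hg19 with HISAT2 and counted with HTSeq. Tool versions, annotation and strandedness of the counting are not given in the sources used here.

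CPM were computed from the total over all symbols. For comparisons between genes, CPM were divided by the joined exonic length in GENCODE 44 lifted to GRCh37. In all, 90.6% of symbols were matched, older symbols through RefSeq synonyms. With a single condition, conditions were not compared. The libraries were compared by the exact binomial test of edgeR, which takes a chi-square form for the highest counts, as for YAP1 and CYR61. Benjamini-Hochberg adjustment ran over 13744 genes whose summed count was 10 or more, and the threshold was 0.05. This test was tested on simulated data. It compares libraries, not conditions. The length trend was a lowess fit with a span of 0.3. Promoter windows came from RefSeq (GRCh38.p14).

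The members and gene lists were chosen with earlier results of these data known. Besides the members, the highest 3 and lowest 2 of each list, genes with no count, the gene with the largest library difference, and the core kinase, VGLL and CCN genes are named. A gene of the STRIPAK list that this rule would name is not reported here. Beyond this rule, all cell type markers are given. AMOTL2, TGFB2, FOXF2, NUAK2 and the genes overlapping a named one fall outside this rule and were chosen after their values were seen. Alternatives covered the scaling, the filter, the minimum count, the length, the motif and each library left out. R 4.3.3 with edgeR 4.0.16 and DESeq2 1.42.0 (size factors only), and Python 3.11.15 with scipy 1.17.1 and statsmodels 0.14.6 were used.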

Additional observations from a re-analysis of the deposited data

How the results depend on the processing

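No paired analysis was possible because a single group of 2 libraries was held. Of 60 values of single genes under another scaling, filter or length term, 57 kept their direction and their side of the threshold or moved by less than the spread between the libraries. The other 3 arose with the length trend removed, where WWTR1 was no longer called (log2 ratio −0.06), CTGF was called at −0.33 and TEAD3 changed sign to −0.15 (adjusted p = 0.0464 in the exact binomial test). Most of the 57 could hardly move. The other scalings gave nearly the same library sizes (22991626 and 23105706 against 23044084 counts in replicate 1), and the filter changes no ratio. With 2 libraries, leaving out either moves a mean by less than its SD by construction, so such values say nothing of stability, and the mean of LATS1, 20.9 CPM, became 31.1 CPM without replicate 1 and 10.7 CPM without replicate 2. The count of members that differ between the libraries was 8 or 9 under each alternative, but with the length trend removed other members made it up. With the longest transcript, TEAD3 had 19.1% and TEAD4 32.4% of the family and YAP1 stood at 6.17 times WWTR1. With median transcript lengths, TEAD1 to TEAD4 had 28.2%, 21.5%, 10.8% and 39.5%, and YAP1 stood at 2.63 times WWTR1. Without length scaling the shares were 47.0%, 21.3%, 16.2% and 15.5%, YAP1 stood at 6.62 times WWTR1 and LATS1 at 0.854 times LATS2. These are means, and in replicates 1 and 2 TEAD1 then had 39.1% and 54.9%, and LATS1 stood at 0.613 and 1.09 times LATS2. By construction these alternatives change only the lengths. Leaving out each library in turn, the median of the retention genes ranged from 208 to 236 CPM and that of the polarity and cadherin genes from 5.90 to 7.01 CPM. The 5.09 CPM given for the polarity and cadherin genes lies below this range, since it is a median of the means of each gene. Counting error weighs most on genes of a few counts, such as ANKRD1, MOB4 and WISP3, and an effect of depth was not tested.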
